A study of Mus musculus with 10 samples.

Results

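The 9 genes used as markers of white adipocytes or of fat depot position considered here were measured in RNA from the interscapular brown fat (iBAT) of Control and AdCKO mice: Nnat, Sncg, Trim14, Mest, Npr3, Hoxc8, Hoxc9, Hoxc10 and Tcf21. They were picked by gene symbol with results of this same contrast already known, so their differences between the groups are given as a description without a p-value. Of the 9 symbols, 7 have a row among the 15075 genes of the table. Hoxc10 and Tcf21 have none and were not analysed here. Hoxc9 stayed below a mean of 10 normalized reads per kb in both groups, which is the minimum for testing a gene, and the other 6 passed it. The member just below the minimum was Hoxc9, with means of 1.73 in Control and 2.33 in AdCKO, and the member just above was Mest, with 15.8 and 28.8. No white depot was sequenced, so whether these genes mark white fat cannot be read from these libraries.

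AdCKO mice lack Crls1, the gene of cardiolipin synthase, in adipocytes. They carry a Cre transgene driven by the adipocyte gene Adipoq and a Crls1 allele with loxP sites around exon 4 on both chromosomes, so that cells of the depot other than adipocytes keep the gene. Control mice carry both floxed copies without Cre, and the sample labels list them as wild type. All 10 mice were C57BL/6, 20 weeks old and kept at room temperature, with 1 library each and 5 libraries in each group. The labels do not give sex, and the Y-linked gene Ddx3y was read in both groups at a mean of 136.5 in Control and 126 in AdCKO. Of 4 Y-linked genes tested, Eif2s3y was called lower (300.5 ± 76.7 and 195 ± 24.1, limma adjusted p = 0.00653), a call lost when most single libraries were left out.

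White adipocytes store lipid in a single large droplet, whereas brown adipocytes are packed with mitochondria and burn fuel for heat through Ucp1. The depots also differ in developmental origin, and fat cells keep the expression of homeobox (Hox) genes that mark their position along the body axis. Genes of the HoxC cluster such as Hoxc8, Hoxc9 and Hoxc10 are known to be higher in white than in classical brown fat. Tcf21, a bHLH factor, marks white preadipocytes. The remaining members are known as genes of white fat or of its expansion.

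Crls1 itself read between 813 and 1291 normalized reads per kb in the Control libraries and between 193 and 249 in the AdCKO libraries (limma adjusted p = 3.53e-08), counted over all exons of its transcript and not over the deleted one alone. Each value is a number of reads on the exons of 1 transcript per gene, normalized between libraries by the authors and divided by exon length, so levels of different genes can be compared on this scale. Markers of brown fat were abundant in every library, with Ucp1 at a mean of 36912 in Control and 14069 in AdCKO. Libraries AdCKO 1, 2 and 4 held RNA of skeletal muscle: the summed level of 10 muscle genes was 7112, 28134 and 10609 in these 3, against 162 in AdCKO 3, 149 in AdCKO 5 and 117 to 149.5 in Control. Of the 10, Acta1 was called higher (limma adjusted p = 0.00654), also a call lost when most single libraries were left out. The sum of 11 genes of progenitors and fibroblasts lay between 1468 and 1899 in Control libraries, against 5037 to 7592 in AdCKO libraries. The sum of 9 macrophage genes lay between 347 and 1117 in Control libraries, against 2924 to 4387 in AdCKO libraries. In whole-tissue RNA, fewer cells of a type and less RNA per cell cannot be told apart. Over all 11244 tested genes, 2879 were called higher and 3152 lower in AdCKO at a limma adjusted p under 0.01 (two-sided, Benjamini-Hochberg). With every library scaled to the same total, 6811 were called higher and 1098 lower, and the median difference of all genes moved up by 0.47 on the log2 scale.

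**Figure D1:**
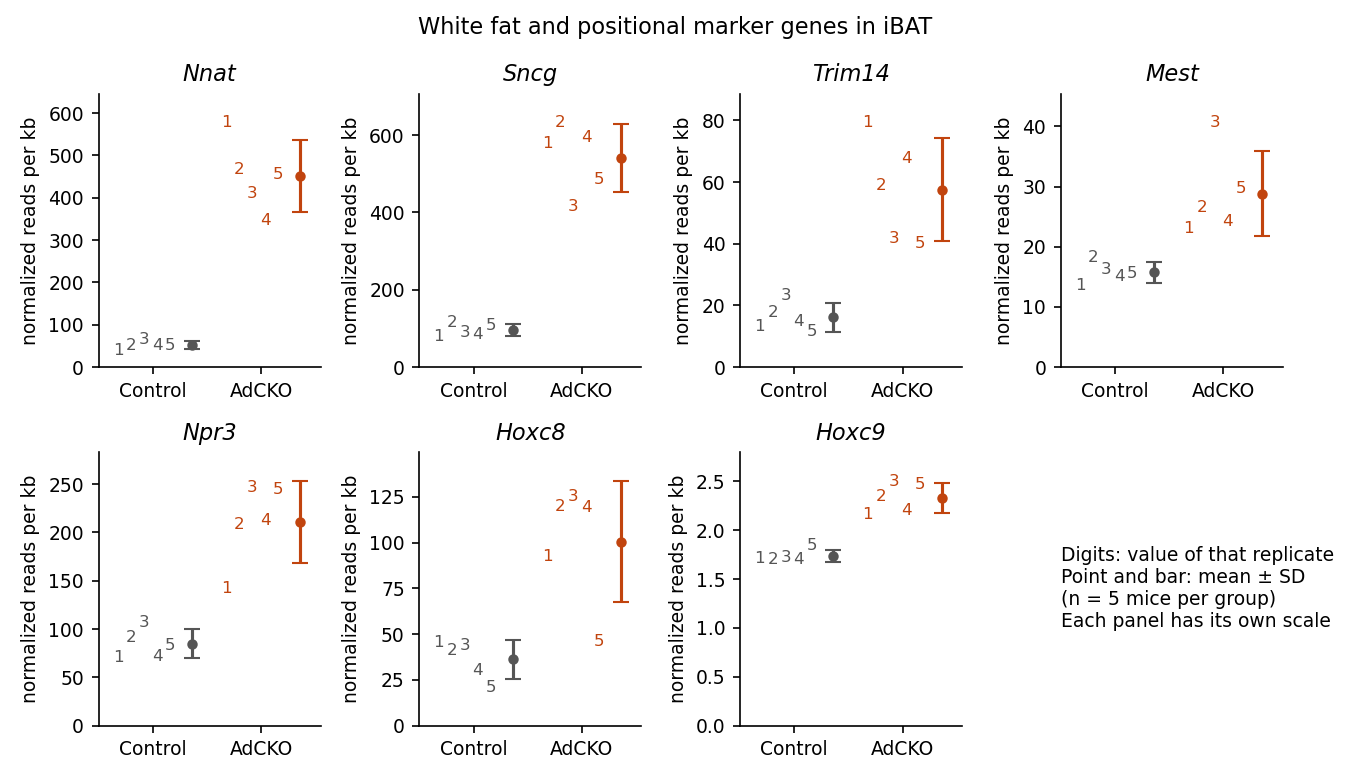
Normalized reads per kb of the 7 members in the table, in each of 5 Control and 5 AdCKO libraries. Digits give the replicate number at its value, and points with bars give the mean ± SD; each panel has its own linear scale from 0. In every panel the lowest AdCKO library lies above the highest Control library, by a small margin for Hoxc8 (45.95 against 45.15).

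The 250 bases before the annotated start were read from the mm9 genome for each member in the table. They are shown for Trim14 and Npr3 as examples without annotated exon bases, so that the sequence before the start can be seen beside the levels. Capitals mark CG dinucleotides, and each sequence runs 5′ to 3′ on the strand of its gene.
Trim14, chr4:46549014-46549263, minus strand: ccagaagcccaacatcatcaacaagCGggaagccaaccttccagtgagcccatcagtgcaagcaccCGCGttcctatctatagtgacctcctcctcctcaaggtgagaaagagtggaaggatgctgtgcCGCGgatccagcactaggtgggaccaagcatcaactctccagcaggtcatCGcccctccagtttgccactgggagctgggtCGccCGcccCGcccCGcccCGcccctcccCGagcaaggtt
Npr3, chr15:11837127-11837376, minus strand: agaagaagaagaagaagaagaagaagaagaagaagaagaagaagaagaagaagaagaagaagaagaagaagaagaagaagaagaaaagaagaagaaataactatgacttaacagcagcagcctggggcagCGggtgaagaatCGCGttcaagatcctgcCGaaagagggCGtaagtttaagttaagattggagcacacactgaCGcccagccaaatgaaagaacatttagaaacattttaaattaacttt
The Trim14 window lies inside an intron of Gm16731, a long noncoding RNA on the other strand. No annotated gene covers the Npr3 window. It precedes the start of transcript NM_001286395 at 11837126, whereas the annotation searched for exons places the start of Npr3 at 11835429. Positions in this window hold for NM_001286395 only. The windows of Nnat, Sncg and Mest hold 180, 120 and 52 annotated exon bases, those of Nnat belonging to Blcap on the other strand and the others to longer transcripts of the same gene.

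The Npr3 window opens with a long run of aag repeats. A set of 5 motifs was searched on both strands in the windows of Nnat, Sncg, Trim14, Mest, Npr3 and Hoxc9, and the share of all windows that hold each is given beside it. The core promoter motif TATAAA is held by 7.34% of windows. TGATGNAAN, shared by C/EBP and ATF factors, is held by 2.01%, and TTTCNNTTT, a core of interferon response elements, by 7.72%. None of these 3 was found in the windows of these 6 members. CCAAT is held by 35.3% of windows, and among these 6 by Npr3, at positions -64 to -60 from the start on the opposite strand. CCCNNGGG, which EBF factors can bind, is held by 16% of windows, and among these 6 by Sncg at -174 and by Mest at -85 and -84, where the matches overlap. A match is a run of letters and does not show binding.

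All 7 members in the table were higher in AdCKO, with no overlap between the groups. Hoxc9 did so at values of at most 2.50, far under the minimum for testing, and the shares of tested genes given below do not cover it. The ratio of the AdCKO mean to the Control mean was 8.73 for Nnat, 5.69 for Sncg, 3.57 for Trim14, 2.77 for Hoxc8, 2.49 for Npr3, 1.83 for Mest and 1.35 for Hoxc9. All 6 tested members were called higher, where 25.6% of all tested genes were called higher, and for all 6 the AdCKO libraries were all above the Control libraries, as for 24.5% of all tested genes. Because the members were chosen on this contrast, nothing is read from these shares. The median difference of the 6 was 1.59 on the log2 scale, beside -0.01 over all tested genes.

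Nnat (NM_180960) encodes neuronatin, a small membrane protein of the endoplasmic reticulum, and is imprinted, with expression from the paternal copy. It lies on the plus strand at chr2:157385814-157388261, within the span of Blcap, which runs on the opposite strand. Nnat read 38.5, 50.6, 65.5, 52.0 and 52.1 normalized reads per kb in Control 1 to 5 and 577, 468, 409.8, 347 and 455 in AdCKO 1 to 5. The lowest AdCKO library thus stood far above the highest Control library. The means were 51.7 ± 9.56 and 451 ± 84.7 (SD, n = 5 each), a difference of 3.10 on the log2 scale (SE 0.15). Of the tested genes, 99.5% had a smaller difference. In level, Nnat moved from above 56.8% of the genes in the table to above 93.3% of them.

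Blcap, the gene in whose span Nnat lies, is itself imprinted in some tissues. It was higher in AdCKO by a smaller step, from 324 ± 8.64 to 396 ± 24.3, a log2 difference of 0.29 (SE 0.06, limma adjusted p = 0.00111). The ratio of Nnat to Blcap, both per kb, was between 0.117 and 0.199 in the Control libraries and between 0.918 and 1.54 in the AdCKO libraries. The exons of both genes share no base in the annotation. Nnat shares 87 of its exon bases with an annotated microRNA gene on the other strand, and the sources do not say whether reads were counted by strand.

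Sncg (NM_011430) encodes gamma-synuclein, a soluble protein of neurons that is also abundant in white adipocytes. It lies on the minus strand at chr14:35183460-35187855. Sncg read 78.8, 115, 89.7, 84.2 and 107.5 in Control 1 to 5 and 577, 632, 416, 594 and 486 in AdCKO 1 to 5. AdCKO 3 and 5, the libraries with little muscle RNA, were the lowest of the AdCKO group and still far above the highest Control library. The means were 95.0 ± 15.5 and 541 ± 88.2 (SD, n = 5 each), a log2 difference of 2.50 (SE 0.13).

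Because Sncg is a gene of neurons, genes of neurons and glia are given beside it. Th, Dbh and Prph have no row in the table. Uchl1, a neuronal gene, and Sox10, a glial factor, were called higher, with log2 differences of 0.69 (limma adjusted p = 0.000748) and 1.07 (limma adjusted p = 2.28e-05). S100b, a glial gene also expressed in brown adipocytes, fell from 486 ± 104 to 187 ± 62.5, a log2 difference of -1.41 (limma adjusted p = 6.15e-05). The neuronal genes Tubb3 and Gap43 were at or under 2.34 in both groups. Whether nerve RNA has a part in the Sncg difference was not tested.

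Trim14 (NM_029077) encodes a protein of the tripartite motif family that acts with the mitochondrial adaptor Mavs in the sensing of viral RNA. It lies on the minus strand at chr4:46517944-46549013. Trim14 read 13.3, 17.7, 23.4, 14.8 and 11.5 in Control 1 to 5 and 79.2, 59.0, 41.7, 67.8 and 40.2 in AdCKO 1 to 5. The means were 16.1 ± 4.65 and 57.6 ± 16.8 (SD, n = 5 each), a log2 difference of 1.76 (SE 0.21). Within AdCKO the libraries with muscle RNA held the 3 highest values. AdCKO 3 and 5 alone gave a log2 difference of 1.33.

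Genes of interferon signalling and RNA sensing were higher with Trim14. Of 12 tested, 10 were called higher and 1 lower, beside 25.6% and 28.0% of all tested genes, and the median log2 difference was 1.97. Among them were Oasl2, from 18.6 ± 5.01 to 169 ± 93.1 (limma adjusted p = 9.96e-06), Isg15, a ubiquitin-like modifier, from 41.4 ± 11.5 to 299.7 ± 168 (limma adjusted p = 2.49e-05), and Ifit1, which binds foreign RNA, from 15.5 ± 5.02 to 150.5 ± 89.5 (limma adjusted p = 2.52e-05). Mavs was lower, from 448 ± 37.6 to 285 ± 24.1, a log2 difference of -0.65 (limma adjusted p = 1.53e-05), and was not called with every library at the same total (-0.17). The summed level of the list was 4351, 1827, 2383, 2681 and 1186 in AdCKO 1 to 5, against 872 to 1331 in Control, so that its highest and lowest AdCKO libraries, 1 and 5, were also those of Trim14. With AdCKO 3 and 5 alone, 7 of the genes were called higher. Macrophages, whose summed marker level was higher in every AdCKO library, also express these genes, and their part in the Trim14 difference was not tested. Trim14 shares 163 exon bases with Gm16731 on the other strand.

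Mest (NM_001252293), also called Peg1, encodes an enzyme of the alpha/beta hydrolase family, is imprinted, and is known for its link to the expansion of white fat. It lies on the plus strand at chr6:30683506-30698466. Mest read 13.6, 18.2, 16.2, 15.1 and 15.6 in Control 1 to 5 and 23.0, 26.5, 40.6, 24.2 and 29.7 in AdCKO 1 to 5. AdCKO 1 came nearest to the highest Control library, and AdCKO 3 stood furthest from it. The means were 15.8 ± 1.69 and 28.8 ± 7.07 (SD, n = 5 each), a log2 difference of 0.81 (SE 0.14), the smallest of the 6 tested members. With quantile normalization the log2 difference was 0.50 and Mest was no longer among the called genes. Unlike Trim14 and Sncg, Mest was higher in the libraries with little muscle RNA, which alone gave 1.10. Copg2, on the other strand, covers 904 of the 3406 exon bases of all annotated Mest transcripts (26.5%). The Mest value was counted over 1474 bases of 1 transcript, and the share of those that Copg2 covers was not determined. Copg2 read 71.8 ± 8.18 and 60.6 ± 5.77 (log2 difference -0.24, limma adjusted p = 0.0373, not called). The direction of Copg2 turned to 0.23 with every library at the same total.

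Nnat and Mest belong to the imprinted genes, and 10 others of that list were tested. Of these, 3 were called higher and 3 lower, beside 25.6% and 28.0% of all tested genes. The higher genes were Plagl1, a zinc-finger factor that regulates other imprinted genes, from 6.02 ± 0.89 to 26.2 ± 5.83 (log2 difference 1.93, limma adjusted p = 5.37e-07), Grb10, an adaptor of the insulin receptor, from 38.8 ± 3.25 to 94.1 ± 10.3 (1.25), and Igf2, a growth factor, from 33.5 ± 4.67 to 45 ± 6.55 (0.42). Igf2 was not called with quantile normalization (0.25), with AdCKO 3 and 5 alone (0.39), without a filter, or when any of Control 2, 3 and 5 or AdCKO 1 to 4 was left out. The lower genes were Ndn, Gnas and Zrsr1, with log2 differences of -1.57, -0.97 and -0.81. Ndn, which encodes necdin, fell from 236 ± 22.2 to 79.1 ± 10.9 (limma adjusted p = 6.77e-08). Imprinted genes thus moved in both directions, and Dlk1, a gene of preadipocytes, stayed under the minimum at 3.06 ± 0.31 and 2.57 ± 0.39.

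Npr3 (NM_001286395) encodes the natriuretic peptide receptor that takes its ligands up and clears them, and is known to be high in white and low in brown fat. It lies on the minus strand at chr15:11769651-11837126. Npr3 read 70.5, 91.2, 107, 72.0 and 82.7 in Control 1 to 5 and 142, 208, 246, 212 and 245 in AdCKO 1 to 5. AdCKO 1 was the lowest of its group. The means were 84.6 ± 15.0 and 210.5 ± 42.3 (SD, n = 5 each), a log2 difference of 1.29 (SE 0.16), and 1.54 with AdCKO 3 and 5 alone.

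Npr1, the signalling receptor that raises cGMP and lipolysis when natriuretic peptides bind, was also higher. It rose from 95.8 ± 8.43 to 184 ± 19.4, a log2 difference of 0.93 (SE 0.09, limma adjusted p = 1.6e-06). The level of Npr3 divided by that of Npr1, both per kb, was between 0.796 and 1.17 in Control and between 0.771 and 1.42 in AdCKO, and these ranges overlap. Npr2, the receptor for C-type natriuretic peptide, read 74.2 ± 8.88 and 79.7 ± 6.03 and was not called (limma adjusted p = 0.317). Of 8 listed genes of the system, 6 are in the table. The ligand gene Nppa, the processing enzyme gene Corin, Ostn, whose product binds the clearance receptor, and the kinase gene Prkg1 were all under the minimum, with means of at most 5.69.

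Hoxc8 (NM_010466) encodes a homeobox transcription factor of the trunk. It lies on the plus strand at chr15:102820970-102824685. Hoxc8 read 45.15, 40.8, 43.9, 30.4 and 20.7 in Control 1 to 5 and 92.4, 119.6, 125, 119 and 45.95 in AdCKO 1 to 5. AdCKO 1 to 4 stood well above every Control library, while AdCKO 5 lay just above Control 1. The means were 36.2 ± 10.4 and 100.4 ± 33.0 (SD, n = 5 each), a log2 difference of 1.42 (SE 0.28). Leaving out single libraries gave differences between 1.24 and 1.67. With AdCKO 3 and 5 as the only AdCKO libraries it was 1.10, and Hoxc8 was no longer among the called genes, while the other 5 tested members were.

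Hoxc9 (NM_008272), the next gene of the cluster, lies on the plus strand at chr15:102807463-102814875. It read 1.70, 1.70, 1.72, 1.70 and 1.84 in Control 1 to 5 and 2.16, 2.34, 2.50, 2.20 and 2.47 in AdCKO 1 to 5. The log2 difference of 0.29 (SE 0.04) comes from values far under the minimum of 10. At its AdCKO mean of 2.33, Hoxc9 was above 13.2% of the genes in the table.

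The HoxC genes differed among themselves. Along the cluster, Hoxc8 starts 13.5 kb from the start of Hoxc9, Hoxc6 32.5 kb, Hoxc5 37.0 kb and Hoxc4 57.4 kb. Hoxc6 read 126 ± 24.3 and 126 ± 19, a log2 difference of 0.01 (SE 0.15, limma adjusted p = 0.953), and Hoxc4 read 103 ± 17.0 and 106 ± 15.6 (0.04, SE 0.13, limma adjusted p = 0.82). Hoxc5 was lower, from 81.7 ± 14.6 to 56.1 ± 6.58 (-0.53, SE 0.12, limma adjusted p = 0.00202), and shares 449 exon bases with Gm20398. The ratio of Hoxc8 to Hoxc6, both per kb, was 0.335, 0.287, 0.369, 0.349 and 0.141 in Control 1 to 5 and 0.729, 0.818, 0.974, 0.888 and 0.484 in AdCKO 1 to 5. Such a ratio within a library is not changed by rescaling whole libraries.

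**Figure D2:**
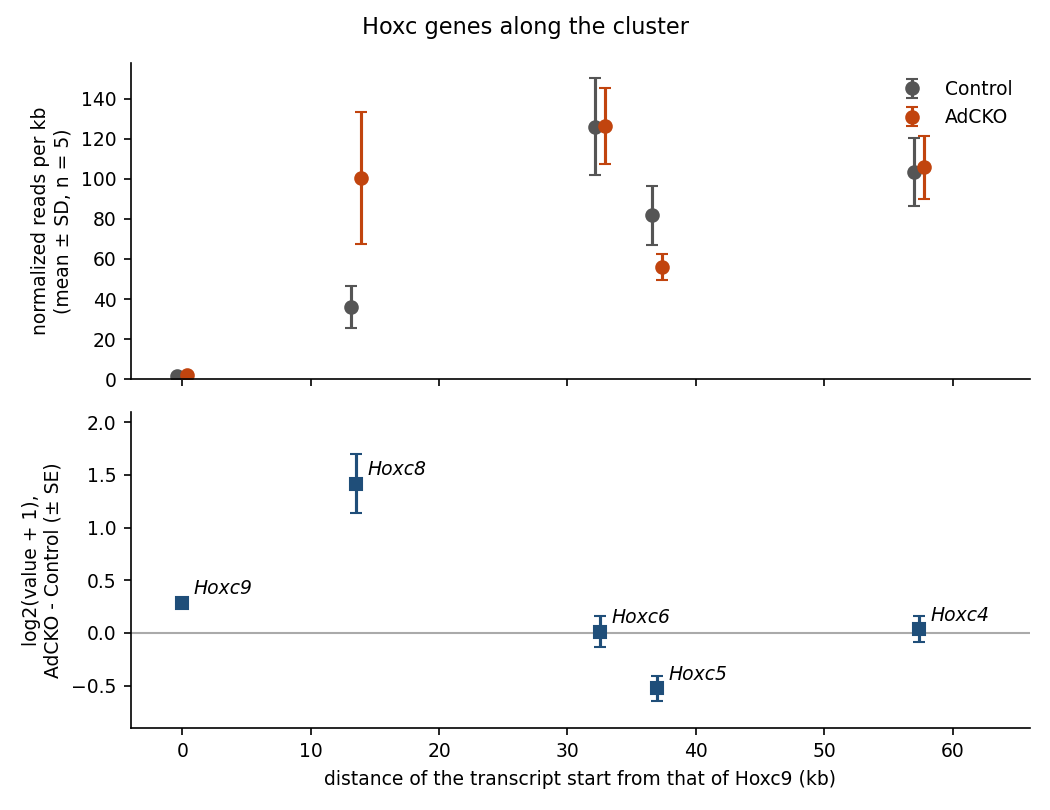
The 5 HoxC genes of the table against the distance of their transcript start from that of Hoxc9 in kb. The upper panel gives normalized reads per kb as mean ± SD (n = 5 per group), and the lower panel gives the difference of log2(value + 1), AdCKO minus Control, ± SE. Hoxc8 is the gene that stands above 1 (1.42), while Hoxc6 and Hoxc4 lie at 0.01 and 0.04.

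The other Hox genes were lower, higher or not called. Over the 19 tested, Hoxc4, Hoxc5 and Hoxc6 included, 3 were called higher and 5 lower, beside 25.6% and 28.0% of all tested genes, with a median log2 difference of -0.13. In the HoxA cluster 4 of 7 tested genes were called lower and 3 were not called. Hoxa4 fell from 182 ± 27.0 to 63.9 ± 15.4 (log2 difference -1.51, limma adjusted p = 3.25e-06), Hoxa3 from 62.7 ± 5.22 to 35.9 ± 4.44 (-0.79, limma adjusted p = 1.25e-05) and Hoxa5, the most abundant of them, from 242 ± 29.3 to 149 ± 15.2 (-0.69, limma adjusted p = 3.83e-05). In the HoxB cluster Hoxb5, Hoxb6 and Hoxb8 were higher, by 0.31, 0.37 and 0.53. These 3 were not called with quantile normalization, where Hoxb5 turned to -0.06, or with AdCKO 3 and 5 alone. With every library at the same total, 10 of the 19 genes were called higher and 2 lower. Leaving out Control 1, Control 4, AdCKO 2, AdCKO 3 or AdCKO 4 left only 1 of the 3, Hoxb6. The tested HoxD genes, Hoxd4 and Hoxd8, had log2 differences of 0.19 and 0.29 and were not called.

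Other genes of depot position were higher or not called. Of 9 tested, 6 were called higher and 3 were not called, beside 25.6% of all tested genes called higher, with a median log2 difference of 0.53. Tbx15, a T-box factor of dorsal skin and of some fat depots, rose from 9.66 ± 2.63 to 44.0 ± 17.4 (log2 difference 2.04, limma adjusted p = 1.03e-05). En1, a marker of the dermomyotome from which brown fat arises, rose from 5.68 ± 1.26 to 13.2 ± 1.20 (1.10, limma adjusted p = 1.51e-05), and Irx3 rose from 22.6 ± 3.71 to 39.5 ± 2.40 (0.79, limma adjusted p = 2.76e-05). Zic1, a marker of classical brown fat, read 36 ± 9.88 and 39.2 ± 13.4 and was not called (limma adjusted p = 0.763). The number called higher was 3 with quantile normalization and 3 with AdCKO 3 and 5 alone. Among cofactors of Hox proteins, Meis3 was called higher (0.97, limma adjusted p = 5.07e-05) and Pbx2, Pbx3, Meis1, Meis2 and Pknox1 were not called. The bHLH partners of Tcf21, Tcf3 and Tcf12, had log2 differences of 0.06 and -0.01 and were not called.

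Other genes known to be higher in white than in brown fat were called higher or not called. Of 10 tested, 5 were called higher and 5 were not called, beside 25.6% of all tested genes called higher, with a median log2 difference of 0.97, and 9 were called higher with every library at the same total. Of the called genes, Agt and Rbl1 passed the minimum only through AdCKO, so the filter set their direction. Slc7a10, an amino acid transporter on the surface of white adipocytes, rose from 64.7 ± 5.90 to 227 ± 76.8 (log2 difference 1.74, limma adjusted p = 6.77e-06). The hormone gene Retn rose from 363 ± 136 to 954 ± 275 (1.42, limma adjusted p = 0.00022), Agt, which encodes angiotensinogen, from 6.31 ± 1.27 to 17.2 ± 4.07 (1.30, limma adjusted p = 3.01e-05), and Sfrp5 from 13.9 ± 1.51 to 30.0 ± 8.80 (1.02, limma adjusted p = 0.000106). Rbl1, a pocket protein that restrains the brown program, rose from 5.99 ± 1.23 to 12.2 ± 2.04. Lep, the leptin gene, read 61.3 ± 72.0 and 145 ± 98.2, with overlapping groups, and was not called (limma adjusted p = 0.0351). Control 2 read 185 and the other Control libraries 13.2 to 63.3. Without Control 2 the log2 difference of Lep was 2.27 and Lep was called (limma adjusted p = 0.00245). Lep was not called with any other single library left out (limma adjusted p from 0.0327 to 0.0904). From the AdCKO libraries with little muscle RNA alone its difference was 1.06, not called (limma adjusted p = 0.295). Lep was called with every library at the same total (2.18, limma adjusted p = 0.00751). It was also called with the replicate number as a block (limma adjusted p = 0.00957). The transcriptional regulators Tle3, Zfp423, Nrip1 and Rb1 were not called in the main test, with log2 differences between -0.19 and 0.38. Nrip1 was called higher without Control 2 (0.48, limma adjusted p = 0.00703) and with every library at the same total (0.84, limma adjusted p = 0.000121). With any other single library left out Nrip1 was not called (limma adjusted p from 0.0195 to 0.0706). With quantile normalization 1 white-enriched gene was called lower.

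**Figure D3:**
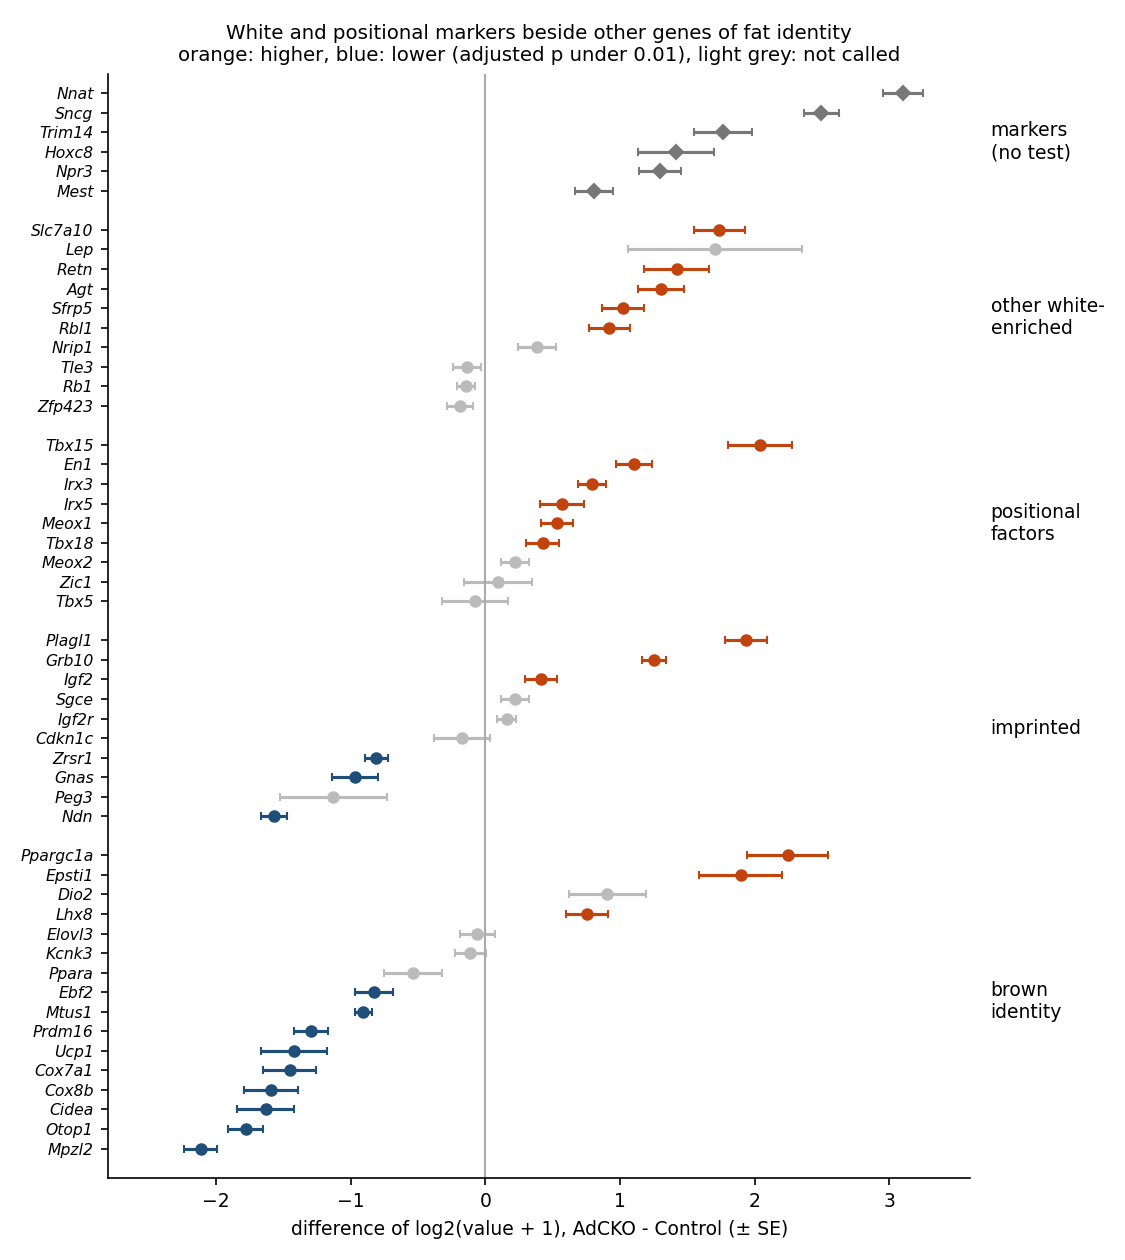
Differences of log2(value + 1), AdCKO minus Control, ± SE, for the 6 tested markers (diamonds, no test) and for the tested genes of 4 lists (circles). Orange and blue circles are called higher and lower at a limma adjusted p under 0.01, and light grey circles are not called. Among the other white-enriched genes 5 of 10 are orange, and among the brown identity genes 9 of 16 are blue. Agt, Rbl1, Plagl1, Tbx15, En1, Tbx18 and Irx5 passed the minimum for testing only through AdCKO.

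Genes of brown adipocyte identity were mostly lower in the same libraries. Of 16 tested, 9 were called lower and 3 higher, beside 28.0% and 25.6% of all tested genes, with a median log2 difference of -0.87. Mpzl2 fell from 374 ± 48.7 to 86.2 ± 15.3 (log2 difference -2.11, limma adjusted p = 5.31e-08), Otop1 from 1070 ± 148 to 313 ± 60.8 (-1.78, limma adjusted p = 2.92e-07) and Prdm16, a transcriptional regulator that specifies the brown fate, from 61.3 ± 6.37 to 24.7 ± 5.10 (-1.29, limma adjusted p = 2.61e-06). Ppargc1a rose from 100.7 ± 20.6 to 530.5 ± 275 (2.24, limma adjusted p = 3.7e-05), a larger step than the fall of Mpzl2. Epsti1, which is also interferon-related, rose from 12.0 ± 6.19 to 47.4 ± 21.2 (1.90, limma adjusted p = 0.000166). Lhx8 rose from 13.4 ± 2.85 to 23.1 ± 3.50 (0.75, limma adjusted p = 0.000976). Dio2, Elovl3, Ppara and Kcnk3 were not called. Of 5 tested beige marker genes, Cited1, Klhl13, Sp100 and Cd40 were called higher and Slc27a1 lower, beside 25.6% and 28.0% of all tested genes. Cited1, Klhl13 and Cd40 passed the minimum only through AdCKO, so the filter set their direction and nothing is read from this count. The other 3 of the 8 listed, Tmem26, Tbx1 and Tnfrsf9, stayed under the minimum in both groups, with means of at most 3.47. Sp100 is also induced by interferon. Slc27a1 was not called with every library at the same total or with quantile normalization. Among 11 genes shared by white and brown adipocytes, 7 were called lower and Lpl, which encodes lipoprotein lipase, higher, beside 28.0% and 25.6% of all tested genes. The lower genes had log2 differences between -0.47 and -1.23, and 4 were called lower with every library at the same total and 3 with quantile normalization.

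Markers of the other cells of the depot were higher, lower or not called. Of the 10 progenitor and fibroblast genes tested, 8 were called higher, beside 25.6% of all tested genes, among them Col1a1, from 65.7 ± 8.46 to 683 ± 70.3, and Pdgfra, from 17.6 ± 2.97 to 60.9 ± 10.8. All 9 macrophage genes were called higher, among them Cd68, from 59.4 ± 27.5 to 977 ± 199. Of the mesothelial markers, 2 of 6 are in the table: Lrrn4 was called lower (-1.75) and Krt19 read under 1 in both groups. Lrrn4 (chr2:132694252-132706598, minus strand) lies just beyond the end of the deleted gene Crls1 (chr2:132672402-132692504, plus strand). It passed the minimum only through Control. Whether its fall has to do with mesothelial cells or with its place beside Crls1 was not tested. Msln, Upk3b, Wt1 and Upk1b have no row. The part of progenitors, macrophages or muscle in the differences of the members was not tested. With AdCKO 3 and 5 as the only AdCKO libraries the log2 difference was 3.06 for Nnat and 2.25 for Sncg, and, as given above, lower than with all 5 for Trim14 and Hoxc8 and higher for Mest and Npr3.

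**Figure D4:**
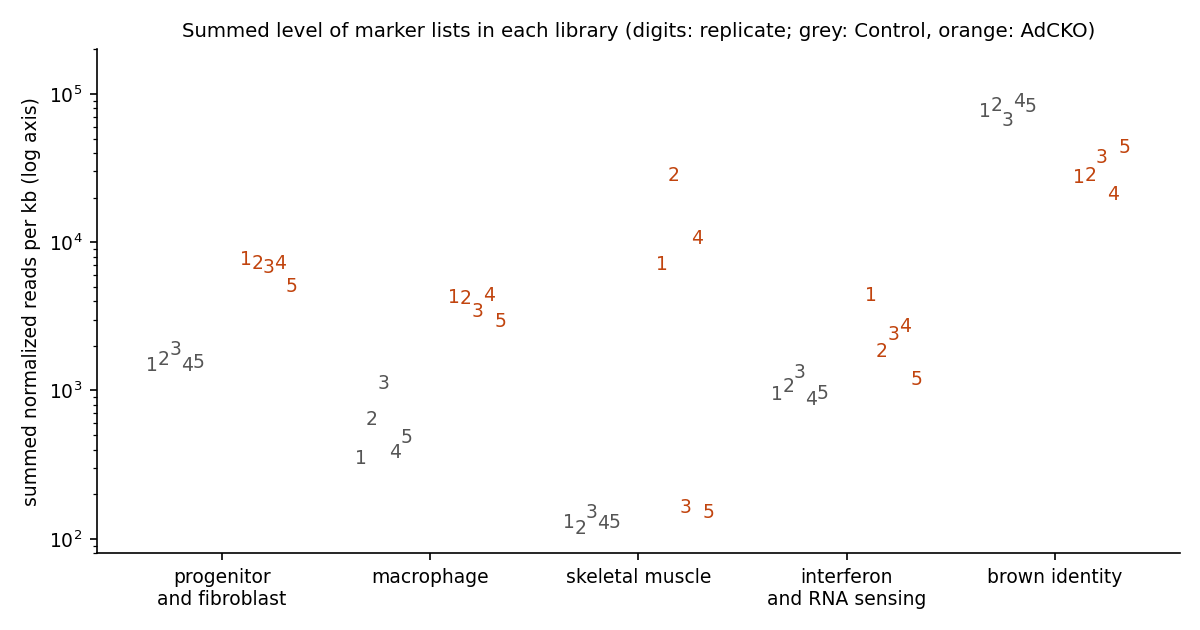
Summed normalized reads per kb (log axis) of 5 gene lists in each library, with digits for the replicate number, Control in grey and AdCKO in orange. Progenitor, macrophage and brown identity sums separate the groups, whereas the skeletal muscle sum is high in AdCKO 1, 2 and 4 (7112 to 28134) and low in AdCKO 3 and 5.

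Most members varied between the mice of a group by more than the median gene. The coefficient of variation in Control and AdCKO was 18.5% and 18.8% for Nnat, 16.3% and 16.3% for Sncg, 28.8% and 29.2% for Trim14, 17.7% and 20.1% for Npr3 and 28.8% and 32.9% for Hoxc8. The median over all tested genes was 10.6% and 10.2%. Mest varied by 10.8% in Control and 24.6% in AdCKO, and Hoxc9, below the minimum, by 3.56% and 6.61%.

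Pairs of members differed in how far they varied together from mouse to mouse. After each group's mean was taken away, the Pearson correlations of the log2 values of the 15 pairs of tested members over the 10 libraries ran from -0.44 (Trim14 and Mest) to 0.69 (Mest and Npr3). Trim14 and Hoxc8 gave 0.51. These points share their libraries and the authors' normalization, and no p is given. The genes most like each member on this measure were Chd8 (0.92) and Mpg (0.91) for Nnat, Ubtd1 (0.95) and Tbc1d13 (0.94) for Sncg, Adcy7 (0.98) and Lgals3bp (0.97) for Trim14, Soat2 (0.96) and Hist1h4k (0.95) for Mest, Reep4 (0.91) and Lhx6 (0.91) for Npr3, and Ccni (0.96) and Alox12 (0.96) for Hoxc8. These are the highest values among 11244 genes over 10 libraries.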

How the data were processed

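The RNA of 5 Control and 5 AdCKO iBAT samples was compared, with groups from the sample labels. Polyadenylated RNA was sequenced, STAR was used for mapping to mm9, iRNA-seq for exon counting and DESeq2 for normalization, with versions not given in the sources used here. The deposited signal is the authors' normalized number of reads per kb of exon for 15075 genes, and is not a count. None is 0 (lowest 0.0532), and their low values did not give whole reads. The table also holds the authors' own fold changes and adjusted p-values, and further tables list the genes they called; none of these was used. Summed over genes, normalized reads per library lay between 7615403 and 8171138 in Control, against 5419800 to 5843024 in AdCKO. Depth before normalization is unknown, so the precision given is that of the deposited values of 5 mice per group. How these values were adjusted between samples is not given in the sources used here. Low genes varied little, as Hoxc9 did in Control (coefficient of variation 3.56%). For such genes the SD, SE and lack of overlap may not give the spread between mice.

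A pseudocount of 1 was added before log2, so fold changes of low genes are understated. Genes averaging at least 10 in either group (11244) were tested with limma 3.58.1 in R 4.3.3 (lmFit, eBayes with an intensity trend, two-sided, Benjamini-Hochberg over the tested genes, called under 0.01). The test was run on simulated data with independent genes, few of them changed. That run does not cover the many changed genes or the shifts shared by whole libraries seen here. The members, 19 other gene lists and the tests were chosen with earlier results of these data known. Named genes are all members, the genes most correlated with each, genes at the Nnat and Mest loci, and from each list up to 4 called genes of smallest p and those against its majority; further listed genes were named after their values were seen. Upstream windows came from the NCBIM37 genome (the same build as mm9), exon overlaps from GENCODE vM1, and figures from matplotlib 3.10.9. Alternatives were a pseudocount of 0.1 or 10, no filter, the same total in every library, quantile normalization, the replicate number as a block, an adjusted p of 0.05, each library left out in turn and, chosen after seeing the data, AdCKO 3 and 5 as the only AdCKO libraries. Some items of the lists and windows are not reported here.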

Additional observations from a re-analysis of the deposited data

Results flagged for a closer look

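In a group of 5 libraries, a value was singled out when its gap to the nearest other value exceeded 0.71 of the group's range. Of 136 groups checked over 68 genes, 13 were singled out, where chance gives about 1 in 20. Among the members this was Hoxc9 in Control 5 (1.84 normalized reads per kb). Interferon-related genes stood out high in Control 3: Ifit1 (24.5), Epsti1 (23.0) and Sp100 (96.5), as did the macrophage gene Emr1 (29.4). Emr1 was also low in AdCKO 5 (69.6). The fibroblast genes Col3a1 in Control 1 (125) and Lum in AdCKO 5 (527) were low. Sfrp5 (45.4) and Meis3 (32.8) were high in AdCKO 1, Meox1 was low in Control 1 (15.2), Ndn was high in AdCKO 4 (98.0), and Blcap was low in Control 2 (309).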

How the results depend on the processing

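The log2 differences of the 6 tested members kept their direction under every alternative. With each library left out in turn they ran from 3.00 to 3.19 for Nnat, 2.43 to 2.59 for Sncg, 1.64 to 1.90 for Trim14, 0.68 to 0.88 for Mest, 1.23 to 1.43 for Npr3 and 1.24 to 1.67 for Hoxc8. The number called higher was 6 in all settings except quantile normalization (5, without Mest), AdCKO 3 and 5 alone (5, without Hoxc8) and no filter (7, with Hoxc9). With every library at the same total the median of all genes moved by 0.47 and, over all genes, 6811 were called higher and 1098 lower; of the white-enriched genes 9 were called higher, of the other Hox genes 10 higher and 2 lower, of the imprinted genes 5 higher and of the brown identity genes 5 higher. Copg2 turned to 0.23. With quantile normalization, which moved the median by -0.07, 1 white-enriched gene was called lower, other Hox genes were called higher in 0 cases and lower in 9, and Hoxb5 turned to -0.059. Without a filter 5 imprinted genes were called higher, as more genes were tested. At an adjusted p under 0.05, 8 other Hox genes were called lower. With AdCKO 3 and 5 alone, 0 other Hox genes were called higher; with each library left out the count ran from 1 to 3. Other causes of these changes were not tested. Of 102 values of single members, 92 moved by less than the spread between replicates and 10 by more. Of all 1182 values of 67 single genes, 2 reversed. Lost and gained calls were counted only for the genes named from the lists, without the members, where 51 values lost their call and 1 gained one. Fitting the replicate number as a block (replicate block) called 2592 genes higher and 2838 lower, against 2879 and 3152 without it, all 6 members, and 0 other Hox genes higher. The labels do not say that the numbers pair mice, and deviations of same-numbered libraries correlated between -0.27 and 0.10 over 5 pairs, with 0 numbers matching best both ways.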
